A study of Mus musculus with 84 samples.

Results

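Astrocytes of 1 strain were compared that carried the same first surface antigen and differed in the second. The pair consists of 6 libraries of the 84 in the series and of the 15 made from acutely isolated astrocytes. The pair was chosen with earlier results of these data known, and its libraries were taken by their labels. It holds 3 libraries labelled forebrain ACSA-positive GLASTneg and 3 labelled hindbrain ACSA-positive GLASTpos. The first 3 carry the same name in a supplementary table of the paper that lists highly expressed genes, whereas the second 3 are named forebrain GLASTpos there. The values of all 15 acutely isolated libraries in that table were each proportional to those of exactly 1 deposited library within 0.1%, which places the names side by side. Of these libraries, 3 have the same name in both sources and 12 have another. Because the surface phenotype of the pair is the same under both namings, the groups are called GLASTneg and GLASTpos here, and the region of the GLASTpos libraries is stated as labelled hindbrain and named forebrain in the paper.

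All 6 libraries came from untreated wild-type FVB/N mice and carry no transgene or reporter. Cells were sorted as DAPI-negative, CD11B-negative, CD45-negative and ACSA-positive, and then by surface GLAST. RNA of at most 2 mice went into each library, and the paper describes the isolated cells as adult, while the exact age and the sex of these mice are not given in the sources used here. Nothing states that the 3 libraries of a group came from separate animals, so p-values measure only the spread between these libraries. Under the names in the paper, both groups are GLAST fractions of forebrain cells. Whether GLASTneg and GLASTpos libraries came from the same mice is not stated. The main fit treated them as unpaired, and a replicate block is among the alternatives. The forebrain dissection included the olfactory bulbs, and hindbrain meant cerebellum and brain stem. The labels place all 15 libraries in the same lane of the same flow cell.

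GLAST, encoded by Slc1a3, and GLT-1, encoded by Slc1a2, are the transporters with which astrocytes clear glutamate from synapses. ACSA-2 is an epitope of the ATP1B2 protein, a beta subunit of the sodium pump. Astrocytes keep part of the transcription factor code of the neural tube region in which they arose. Lhx2 and Emx2 mark the telencephalon, Hox genes mark the caudal hindbrain and spinal cord, and Bergmann glia are the radial astrocytes of the cerebellar cortex with high surface GLAST. Sorted astrocytes can be accompanied by RNA of oligodendrocytes, ependymal cells, neurons and microglia, so marker genes of these cells were measured with the astrocyte genes.

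The 3 GLASTneg libraries held 927327, 1220327 and 824608 counts, and the 3 GLASTpos libraries held 1269316, 892881 and 1057056. Expression is given as counts per 1e6 counts (CPM) after TMM scaling, for libraries 1, 2 and 3 of a group in that order. A gene was taken as detected above 3 counts, a floor that 10477 to 11463 genes passed. Before TMM scaling, 3 counts corresponded to between 2.36 and 3.64 CPM in these libraries. The floor and the count intervals given here reflect counting error alone, since PCR copies of a molecule were not told apart. Mitochondrial transcripts made up 11.2% to 13.4% of counts in GLASTneg and 9.92% to 14.02% in GLASTpos libraries. Fold changes are GLASTpos over GLASTneg on the log2 scale with their SE. Testing was two-sided with edgeR's quasi-likelihood method, and a gene counts as called at a log2 fold change beyond 1 or -1 together with a Benjamini-Hochberg adjusted p, over 14957 genes, of less than 0.05.

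Regional genes placed both groups of the pair together and apart from the other 9 acutely isolated libraries. Of 20 listed forebrain patterning factors 16 were tested. Their summed expression was 985, 981 and 981 CPM in GLASTneg and 1239, 1266 and 1394 CPM in GLASTpos libraries. It was between 78.8 and 220 CPM in the other 9, including the 3 labelled forebrain GLASTpos, which the paper names hindbrain GLASTneg. The 3 GLASTpos libraries lay above the 3 GLASTneg libraries, and all 6 lay far above the rest.

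Lhx2, a cortical patterning factor, was at 193, 283 and 185 CPM in GLASTneg and at 299.7, 389 and 329 CPM in GLASTpos libraries. The groups did not overlap for this gene, and it was not called (log2 fold change 0.62 ± 0.33). Dmrta2, a factor of the cortical hem and hippocampal primordium (GRCm38 chr4:109978053-109983687), had the same pattern with 103, 98.2 and 105 CPM against 124, 123 and 142 CPM. None of the 16 tested forebrain factors was called between the groups by edgeR, and at an unadjusted p under 0.05 there were 0 as well, as there were in DESeq2. Their median log2 fold change was 0.44 (0.39 with genes at the floor set to their bound), beside 0.00 for all genes tested.

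Caudal markers were low in both groups. Of 33 listed Hox genes 22 were tested. Their summed expression was 5.30, 3.39 and 0 CPM in GLASTneg and 1.62, 1.11 and 0 CPM in GLASTpos libraries. It was 1047 ± 30.3 CPM (SD, n = 3) in the libraries labelled hindbrain GLASTneg, which the paper names spinal cord GLASTneg. Hox sums were also low, at 1.205, 20.3 and 1.03 CPM, in the libraries that the paper names hindbrain GLASTpos, so they do not separate the namings. Bergmann glia genes summed to 818 to 1139 CPM in GLASTneg and 885 to 963 CPM in GLASTpos libraries. The libraries labelled spinal cord GLASTneg, which the paper names hindbrain GLASTpos, reached 9830 to 12140 CPM. The cerebellar granule cell genes Gabra6, Cbln3 and Barhl1 were at 0 in all 6 libraries of the pair, and the list of 6 summed to 4.24 to 14.8 CPM there and to 5.83 to 171 CPM in the other 9, with overlap. The region label of the GLASTpos libraries goes against the forebrain and Bergmann glia genes, and the name given in the paper does not.

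The control arm of the series' second experiment held hindbrain GLASTpos libraries of another strain, C57BL/6. In those 5 libraries the forebrain factors summed to 79.6 ± 18.99 CPM (SD, n = 5). The Bergmann glia genes summed to 11125 ± 877 CPM (SD, n = 5) and the Hox genes to 8.23 ± 5.24 CPM (SD, n = 5). The forebrain sum covers 14 factors there and 16 in the pair. That table was also normalised separately, so these levels stand beside those of the pair without a test.

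**Figure D1:**
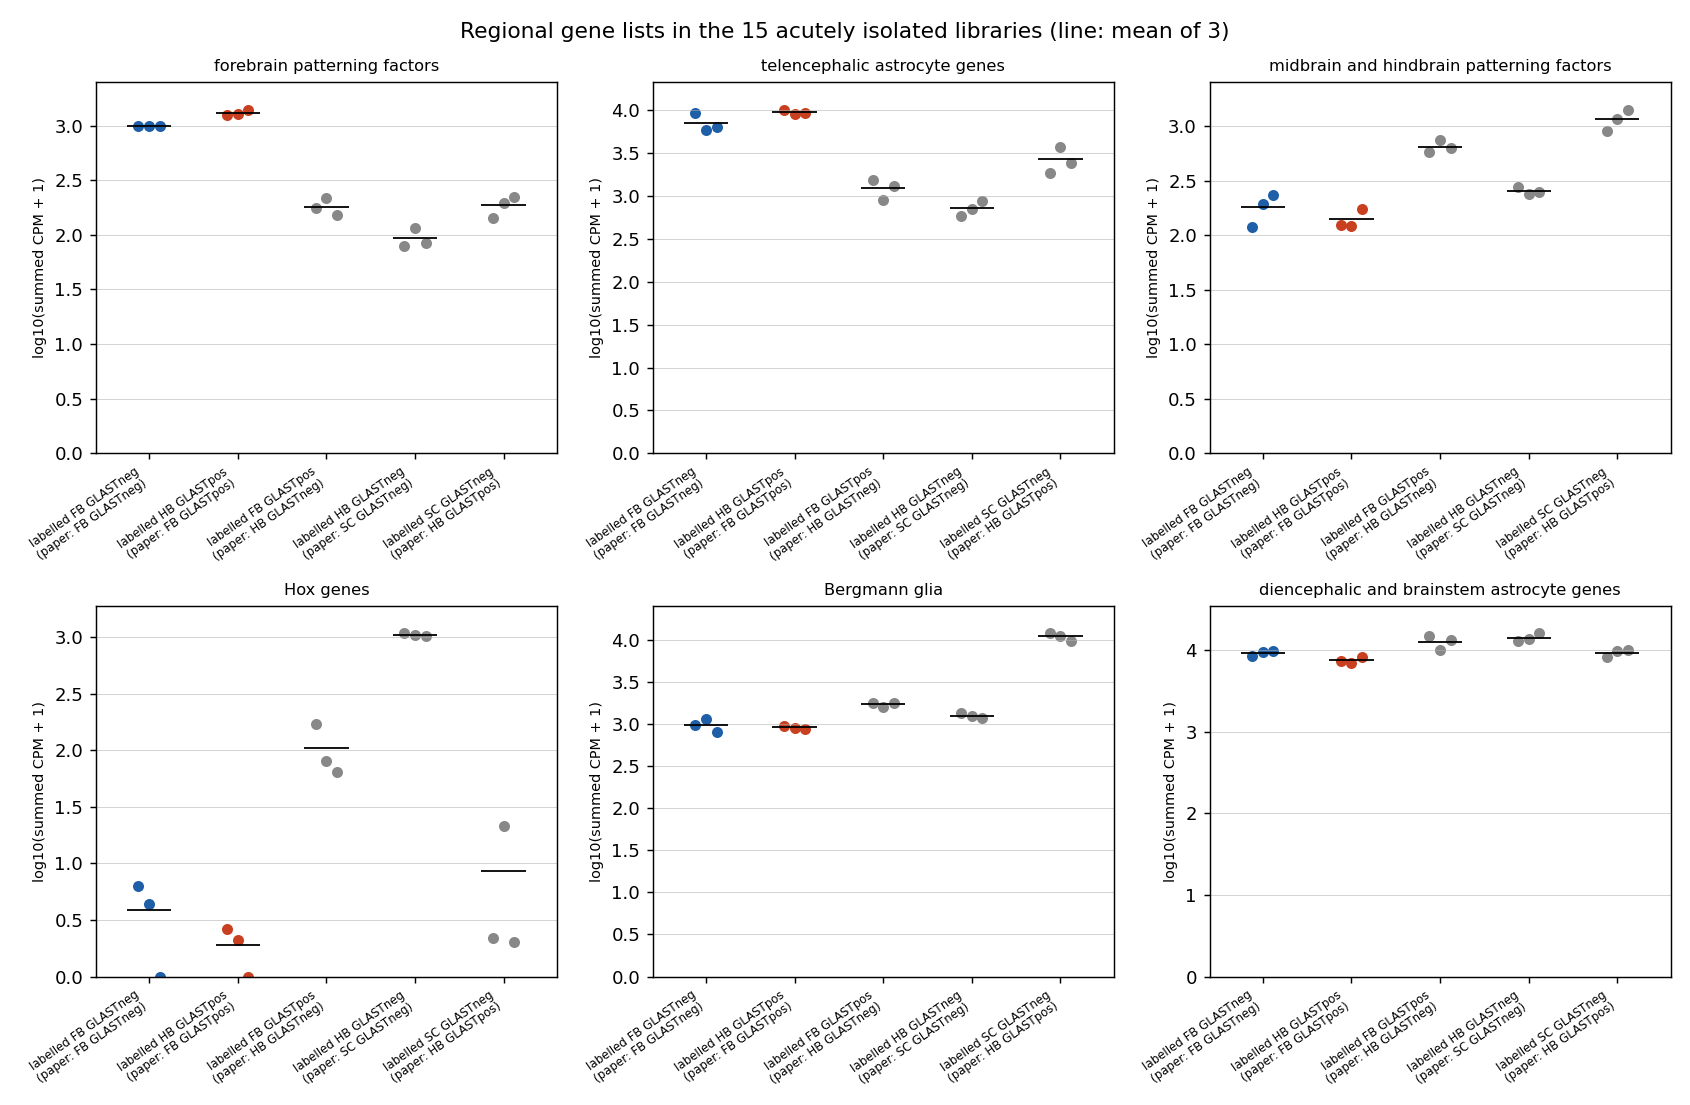
Summed expression of 6 regional gene lists in the 15 acutely isolated libraries, as log10(summed CPM + 1) on the vertical axis, with 1 point per library and a line at the mean of the 3 libraries of each group (log10 of the mean plus 1), and with both names under each group. In the forebrain patterning panel the 6 libraries of the pair lie between 981 and 1394 CPM and the other 9 between 78.8 and 220 CPM.

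The surface sort on GLAST separated the groups, both of which were sorted as ACSA-positive, and neither antigen's transcript was called. Slc1a3, which encodes GLAST (chr15:8634124-8710764), was at 5080, 4344 and 4542 CPM in GLASTneg and at 5397, 6189 and 5867 CPM in GLASTpos libraries. All GLASTpos libraries lay above all GLASTneg libraries, but the log2 fold change of 0.32 ± 0.18 was not called (adjusted p = 1 by edgeR's quasi-likelihood test with Benjamini-Hochberg adjustment, unadjusted p = 0.0842). GLASTneg libraries held abundant Slc1a3 RNA. Atp1b2, which encodes the ACSA-2 antigen (chr11:69599736-69605942), was at 4099, 5162 and 4940 CPM against 4152, 3189 and 3718 CPM. The ranges overlapped, and the log2 fold change of -0.36 ± 0.18 was not called (edgeR, Benjamini-Hochberg adjusted p = 1). Neither gene was called under any of the alternatives run.

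Between GLASTneg and GLASTpos libraries 27 of 14957 genes were called (0.181%), of which 5 were higher in GLASTpos (0.0334%) and 22 lower (0.147%). Under the names in the paper, this comparison is forebrain GLASTpos against GLASTneg, for which the paper reports no differentially expressed genes. DESeq2, which the study's methods name, called 8 genes here. Counts of called genes in the other 9 pairs of acutely isolated groups ranged from 181 to 1051, so this pair had the fewest. As the pair was chosen with earlier results of these data known, its rank is a description and not a test. As shares of the genes tested, those 9 pairs had 1.21%, 1.36%, 2.63%, 2.78%, 3.76%, 3.98%, 5.17%, 5.26% and 7.03%. In the pair with 181, GLASTneg was set against the libraries labelled forebrain GLASTpos. At an unadjusted p under 0.05 there were 533 genes (3.56%), 202 higher and 331 lower. The 27 depended on the fit, since 1 to 52 genes were called under the alternatives. Without GLASTpos library 2 there were 2, Trf among them, without GLASTpos library 3 there were 17, and without GLASTneg library 1 there were 12. Trf was called in 12 of 13 alternatives, while 25 of the 27 were called in 5 to 9. Leaving out GLASTneg libraries 1, 2 and 3 in turn ended 16, 5 and 10 of the 27 calls, and leaving out GLASTpos libraries 1, 2 and 3 ended 3, 25 and 13. None of the 27 changed direction in any alternative.

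**Figure D2:**
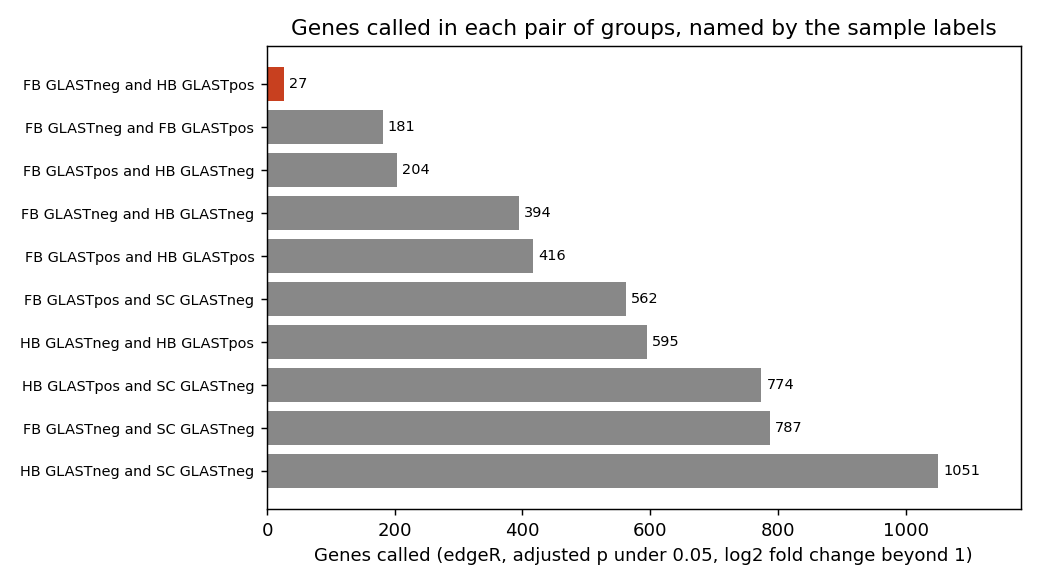
Number of genes called in each of the 10 pairs of the 5 acutely isolated groups, named by the sample labels, on a linear axis from 0. The pair described here (red) has 27 and the other 9 pairs (grey) have 181 to 1051.

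**Figure D3:**
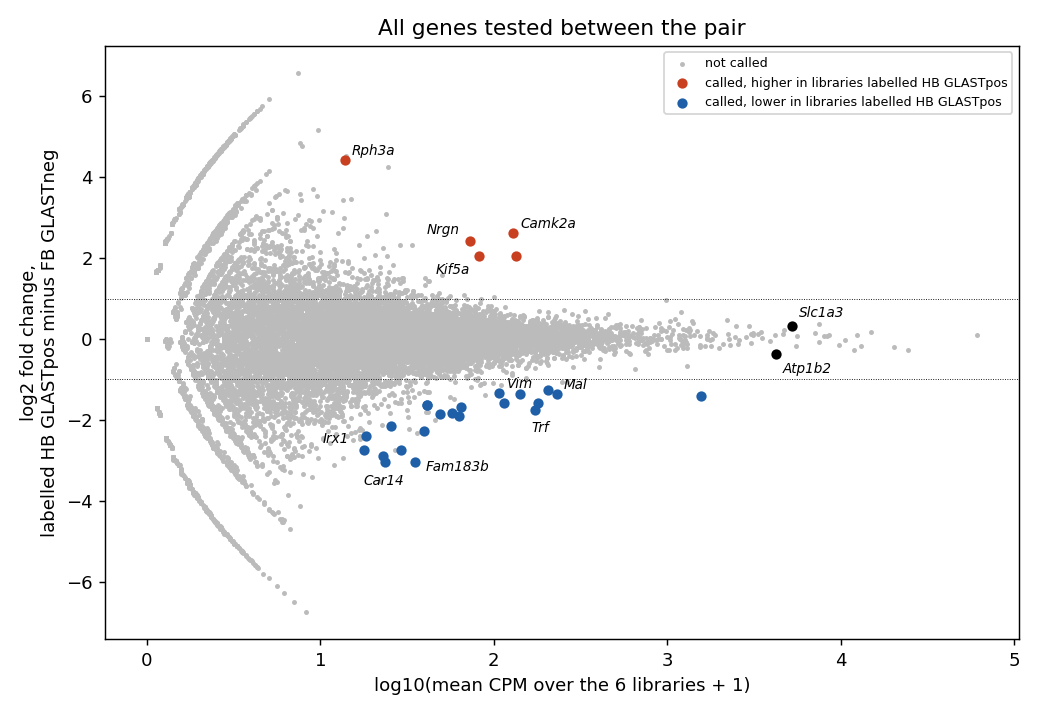
Log2 fold change of GLASTpos over GLASTneg (vertical axis) against log10(mean CPM over the 6 libraries + 1) for the 14957 genes tested, with dotted lines at 1 and -1. The 5 called higher (red) and 22 called lower (blue) lie outside the lines, while Slc1a3 (0.32) and Atp1b2 (-0.36), in black, lie between them.

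Of the 5 genes that were higher in GLASTpos libraries, 4 encode proteins known from neurons. Camk2a encodes the alpha subunit of calcium/calmodulin-dependent kinase II of excitatory forebrain neurons. It was at 55.1, 17.8 and 35.0 CPM in GLASTneg and at 207, 317 and 135 CPM in GLASTpos libraries. Every GLASTpos library lay above every GLASTneg library, and the gene rose by a log2 fold change of 2.61 ± 0.52 (edgeR, Benjamini-Hochberg adjusted p = 0.00484).

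Nrgn encodes neurogranin, a calmodulin-binding protein of dendritic spines (chr9:37544492-37552904). Its level was 32.9, 12.7 and 22.1 CPM against 131, 134 and 98.7 CPM, with a log2 fold change of 2.43 ± 0.50 (edgeR, Benjamini-Hochberg adjusted p = 0.00656). Kif5a, a kinesin motor of axonal transport (chr10:127225696-127263348), was at 30.8, 41.5 and 21.0 CPM against 162, 168 and 64.6 CPM, with a log2 fold change of 2.06 ± 0.39 (edgeR, Benjamini-Hochberg adjusted p = 0.00197). For both genes the 3 GLASTpos libraries lay above the 3 GLASTneg libraries. The mean of Kif5a was 434 CPM in the libraries labelled spinal cord GLASTneg. It was 70.3 CPM in those labelled forebrain GLASTpos and 17.5 CPM in those labelled hindbrain GLASTneg.

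Rph3a encodes rabphilin, a synaptic vesicle protein (chr5:120940499-121010092). It had 1 count in each GLASTneg library and 20, 41 and 13 counts in the GLASTpos libraries. The 74 counts against 3 give a ratio of 22.9 after library size, with a 95% exact interval from 7.53 to 114, and edgeR gave a Benjamini-Hochberg adjusted p of 0.00707. Elsewhere its mean was 50.1 CPM in the libraries labelled forebrain GLASTpos, 54.3 CPM in those labelled spinal cord GLASTneg, and 17.8 CPM in those labelled hindbrain GLASTneg.

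Neuronal marker genes were measured in the same libraries. The 8 tested of 10 listed markers summed to 19.1, 26.2 and 35.0 CPM in GLASTneg and to 101, 103 and 98.7 CPM in GLASTpos libraries. Their sums were 33.95 to 344 CPM in the other 9 libraries. Snap25, a presynaptic fusion protein, was at 11.7, 6.77 and 8.16 CPM against 31.7, 43.4 and 36.9 CPM, and Rbfox3, the NeuN antigen, at 0, 1.69 and 4.66 CPM against 17.1, 15.6 and 24.9 CPM. A higher mean in GLASTpos libraries was found for 6 of the 8 and a lower mean for 2. Stmn2, another marker in the list, overlapped with 0, 12.7 and 10.5 CPM against 12.2, 14.5 and 4.61 CPM. Of 8 tested, 4 did not overlap and were higher in GLASTpos libraries, where 5.73% of all genes did so. None was called by edgeR or DESeq2, 4 had an unadjusted p under 0.05, and the median log2 fold change was 1.98 (2.06 at the bound). The part of neuronal RNA in the 4 called genes was not tested, and in bulk RNA more cells of a type and more RNA per cell cannot be told apart.

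The fifth gene higher in GLASTpos libraries was mt-Tm, the mitochondrial transfer RNA for methionine (chrM:3845-3913). It was at 37.1, 83.8 and 31.5 CPM in GLASTneg and at 172, 367 and 107 CPM in GLASTpos libraries, which did not overlap. Its log2 fold change was 2.06 ± 0.41 (edgeR, Benjamini-Hochberg adjusted p = 0.00466). GLASTpos library 2 was the highest, and without it mt-Tm was not called. The transfer RNAs mt-Tv and mt-Ta, chosen after their values were seen, had 7, 5 and 2 counts against 42, 70 and 13, and 0, 3 and 0 counts against 35, 40 and 3, and were not called.

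Of 10 tested markers of oligodendrocytes, the cells that form myelin, 4 were called lower in GLASTpos libraries and 6 were not called. Trf, the iron carrier transferrin that oligodendrocytes express (chr9:103204001-103230444), was at 408, 189 and 198 CPM in GLASTneg and at 102, 50.1 and 82.1 CPM in GLASTpos libraries. The groups did not overlap, and Trf, which is not in the marker list, fell by 1.75 on the log2 scale with an SE of 0.28 (edgeR, Benjamini-Hochberg adjusted p = 0.000109). GLASTneg library 1 was the highest of the 6 for Trf and GLASTpos library 2 the lowest.

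Among the called oligodendrocyte markers were Mal, Cldn11 and Mag. Mal, a lipid raft protein of myelin (chr2:127633226-127656695), was at 535, 242 and 219 CPM against 170, 102 and 113 CPM. Cldn11, the claudin of myelin tight junctions (chr3:31149920-31164324), was at 357, 129 and 120 CPM against 94.2, 49.0 and 90.4 CPM. Mag, the myelin-associated glycoprotein (chr7:30899176-30914873), was at 241, 171 and 97.9 CPM against 68.2, 41.2 and 60.9 CPM. In all 3 genes the lowest GLASTneg library lay above the highest GLASTpos library. All 3 fell, with log2 fold changes of -1.37, -1.37 and -1.57 and SEs of 0.29, 0.31 and 0.36 (edgeR, Benjamini-Hochberg adjusted p = 0.00909, 0.0234 and 0.0216). Without GLASTneg library 1, the highest for each, none of the 3 was called, and the log2 fold changes of Mal and Cldn11 were -0.85 and -0.68.

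Of the 10 tested oligodendrocyte markers, 4 were called lower and 0 higher, where 22 of all 14957 genes were called lower (0.147%). At an unadjusted p under 0.05 there were 8 lower, beside 331 of all 14957, and the median log2 fold change was -1.32. In DESeq2 1 of the 10 was called. Mbp, the most familiar of the myelin genes, went the other way in its means with 293, 190 and 180 CPM against 311, 286 and 194 CPM and was not called (log2 fold change 0.26 ± 0.27). Summed over the list, expression was 5588, 3228 and 3047 CPM in GLASTneg and 2109, 1354 and 1981 CPM in GLASTpos libraries, against 1622 to 15303 CPM in the other 9. Precursor markers were closer, with Olig1, a lineage factor, at 223, 234 and 182 CPM against 242, 127 and 176 CPM, and 0 of 6 markers were called by edgeR or DESeq2 (1 lower at an unadjusted p under 0.05).

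Further genes known from oligodendrocytes were called lower outside that list. Ugt8a, which makes the galactolipids of myelin (chr3:125865271-125938619), was at 161, 66.03 and 65.3 CPM against 30.9, 13.4 and 33.2 CPM and fell by 1.89 with an SE of 0.36 (edgeR, Benjamini-Hochberg adjusted p = 0.00218). Gjc3, an oligodendrocyte connexin (chr5:137953461-137963098), was at 66.8, 45.7 and 71.1 CPM against 21.9, 13.4 and 23.1 CPM. Ndrg1, a stress-responsive gene of myelinating cells (chr15:66929318-66969640), was at 118, 75.3 and 99.1 CPM against 31.7, 21.1 and 37.8 CPM. Klk6, a secreted serine protease (chr7:43824499-43832030), was at 28.6, 9.31 and 51.3 CPM against 4.06, 0 and 8.30 CPM. The groups did not overlap in these 4 genes, although the lowest GLASTneg value of Klk6 was close to the highest GLASTpos value. Gjc3, Ndrg1 and Klk6 fell, with log2 fold changes of -1.63 ± 0.34, -1.67 ± 0.35 and -2.74 ± 0.66 (edgeR, Benjamini-Hochberg adjusted p = 0.00834, 0.00834 and 0.0427). Gjc3 was not low in general, with a mean of 568 CPM in the libraries labelled spinal cord GLASTneg.

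Stmn4, a stathmin that regulates microtubules (chr14:66344296-66361680), was at 140, 80.4 and 44.3 CPM in GLASTneg and at 32.5, 2.23 and 37.8 CPM in GLASTpos libraries. Sez6l2, a neural membrane protein (chr7:126950563-126970606), was at 106, 63.5 and 58.3 CPM against 34.1, 2.23 and 24.9 CPM. Both fell in GLASTpos libraries, with log2 fold changes of -1.83 and -1.85 and SEs of 0.41 and 0.42 (edgeR, Benjamini-Hochberg adjusted p = 0.0216 for each). GLASTpos library 2 stood well under the other 2 for both genes, and without it neither was called. Exons of Sez6l2 overlap those of Gm21984 on the same strand, so its counts are uncertain.

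**Figure D4:**
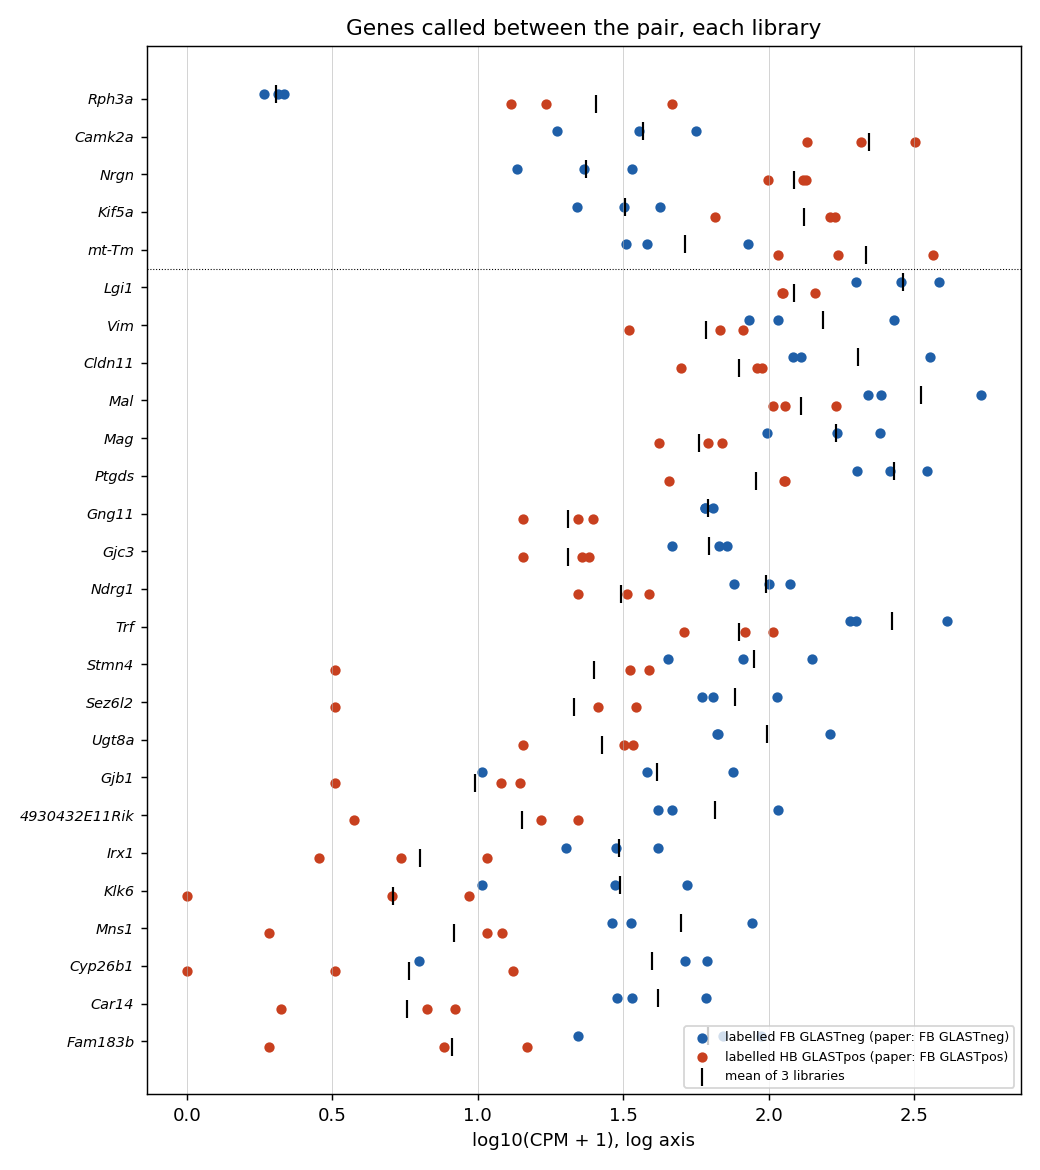
Of the 27 called genes, 26 in each of the 6 libraries, as log10(CPM + 1) on the horizontal axis, with GLASTneg in blue, GLASTpos in red and a vertical tick at the mean of 3 libraries, and with a dotted line between the 5 genes higher and 21 lower in GLASTpos. The groups do not overlap for 24 of the 26, the exceptions being Gjb1 and Cyp26b1. These genes were picked for a difference between the groups, which makes overlap rare among them. Of all 14957 genes tested, 5.73% did not overlap with higher and 5.15% with lower values in GLASTpos libraries.

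Genes known from motile cilia were among those with the largest fold changes in the lower direction. Motile cilia line the ventricles on ependymal cells, which adjoin the astrocyte-like stem cells of the forebrain. Fam183b, a gene of motile ciliated cells (chr11:58792797-58801960), was at 93.3, 21.2 and 68.8 CPM in GLASTneg and at 13.8, 6.68 and 0.923 CPM in GLASTpos libraries. Mns1, an axonemal protein of cilia and flagella (chr9:72438011-72462025), was at 86.95, 27.9 and 32.6 CPM against 9.75, 11.1 and 0.923 CPM. GLASTneg library 1 was the highest and GLASTpos library 3 the lowest in both genes, and the groups did not overlap. Fam183b fell by 3.04 on the log2 scale with an SE of 0.67 and Mns1 fell by 2.75 with an SE of 0.63 (edgeR, Benjamini-Hochberg adjusted p = 0.0191 and 0.0226). Exons of Mns1 overlap those of Tex9 on the opposite strand, and whether counting used strand is not given in the sources used here, so reads of both cannot be told apart.

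The promoters of both genes are shown because these 2 ciliary genes moved together. Each run is 240 bases, from base 250 to base 11 upstream of the annotated start of the gene in RefSeq GRCm38.p6, written 5′ to 3′ on the strand of the gene. For Mns1 it is chr9:72438279-72438518 on the plus strand, and for Fam183b chr11:58801971-58802210 on the minus strand. The coordinates given above for the Mns1 gene come from another annotation with an earlier start, so its window lies inside that span. Capitals mark GTTGCC or its reverse complement GGCAAC, the core of the X-box bound by RFX factors, which regulate ciliary genes. The motif was chosen after the values had been seen and was searched on both strands with no other motif.
Mns1: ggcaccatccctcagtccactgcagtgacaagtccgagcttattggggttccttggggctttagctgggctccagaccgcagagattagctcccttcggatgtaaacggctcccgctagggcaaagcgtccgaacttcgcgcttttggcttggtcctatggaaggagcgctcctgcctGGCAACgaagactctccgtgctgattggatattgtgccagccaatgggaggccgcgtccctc
Fam183b: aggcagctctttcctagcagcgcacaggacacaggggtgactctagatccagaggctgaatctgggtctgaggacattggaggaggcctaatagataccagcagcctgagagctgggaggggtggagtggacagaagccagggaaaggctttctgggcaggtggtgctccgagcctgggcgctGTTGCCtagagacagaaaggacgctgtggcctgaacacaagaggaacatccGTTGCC

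The 6 letters occurred in 3267 of 32851 RefSeq promoter windows of the same length (9.94%). Of the genes called lower, 14 had a window and 2 of these held the motif, namely Mns1 and Fam183b. Of the genes called higher, 2 had a window and 0 held it. Among the ependymal markers, 3 of 7 held it (Ccdc153, Dynlrb2 and Sntn). The share of 9.94% is counted per window, whereas the counts for these sets are per gene. A gene with several windows is taken to hold the motif if any of them does. A match describes the letters of the window and is not evidence of a bound site.

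Ependymal markers had lower values in GLASTpos libraries without being called. The 9 listed markers summed to 379, 178 and 328 CPM in GLASTneg and to 119, 85.7 and 46.1 CPM in GLASTpos libraries, against 42.4 to 1098 CPM in the other 9 libraries. Foxj1, the master regulator of motile cilia, was at 85.9, 49.9 and 81.6 CPM against 34.9, 5.56 and 11.995 CPM, with a log2 fold change of -2.0 ± 0.50 (edgeR, Benjamini-Hochberg adjusted p = 0.0583). Tmem212, a gene of ciliated cells, was at 67.9, 30.5 and 57.1 CPM against 19.5, 11.1 and 1.85 CPM. In 6 of the 9 markers the groups did not overlap, with lower values in GLASTpos, where 5.15% of all genes did so. None was called by edgeR or DESeq2, 6 were lower at an unadjusted p under 0.05, and the median log2 fold change was -2.0 (-1.83 at the bound). With only the 6 libraries of the pair in the fit, 3 of the 9 were called. The part of ependymal RNA in the values of Fam183b and Mns1 was not tested.

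**Figure D5:**
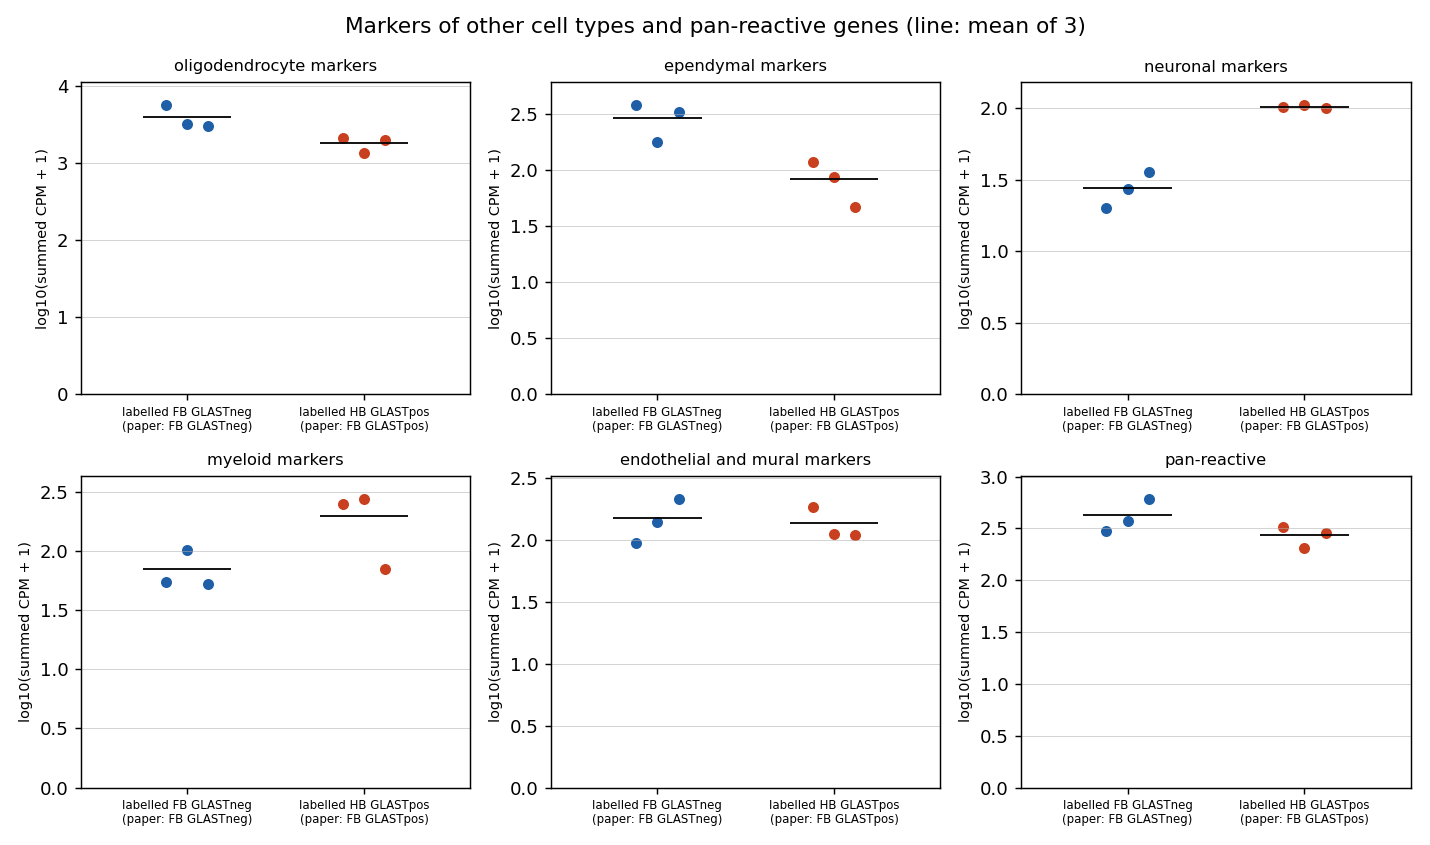
Summed expression of markers of 5 other cell types and of pan-reactive astrocyte genes in the 6 libraries, as log10(summed CPM + 1) from 0, with GLASTneg in blue, GLASTpos in red and a line at the mean of 3 libraries. Oligodendrocyte and ependymal sums lie higher in all GLASTneg libraries, neuronal sums higher in all GLASTpos libraries (98.7 to 103 against 19.1 to 35.0 CPM), and the other 3 lists overlap.

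Other called genes that were lower in GLASTpos libraries included a regional factor and metabolic enzymes. Irx1, an Iroquois homeobox factor of the midbrain, hindbrain and spinal cord (chr13:71957921-71963723), was at 19.1, 28.8 and 40.8 CPM against 9.75, 4.45 and 1.85 CPM. Its groups did not overlap, and it fell by 2.40 on the log2 scale with an SE of 0.56 (edgeR, Benjamini-Hochberg adjusted p = 0.0307). It was the only called gene of 14 tested midbrain and hindbrain factors, of which 3 were lower at an unadjusted p under 0.05. The related Irx5 was at 10.6, 33.0 and 45.5 CPM against 10.6, 5.56 and 11.995 CPM and was not called.

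Car14, a membrane-bound carbonic anhydrase (chr3:95897768-95904691), was at 32.9, 60.1 and 29.1 CPM in GLASTneg and at 5.69, 1.11 and 7.38 CPM in GLASTpos libraries. It did not overlap between the groups and fell by 3.03 with an SE of 0.55 (edgeR, Benjamini-Hochberg adjusted p = 0.00129). The pseudogene 4930432E11Rik (chr7:29558579-29582169) was at 45.6, 107 and 40.8 CPM against 21.1, 15.6 and 2.77 CPM and fell by 2.28 with an SE of 0.46 (edgeR, Benjamini-Hochberg adjusted p = 0.00501). Exons of Car14 overlap Aph1a, and those of 4930432E11Rik overlap Gm29326 and A330087D11Rik, each on the opposite strand, so both counts are uncertain.

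The remaining 5 called genes fall outside the naming rule and are given after their values were seen. They were Lgi1, Ptgds, Gng11, Gjb1 and Cyp26b1, and all were lower in GLASTpos libraries. Cyp26b1, an enzyme that degrades retinoic acid, was at 5.30, 50.8 and 60.6 CPM against 12.2, 2.23 and 0 CPM. Gjb1, the connexin 32 of oligodendrocytes, was at 74.2, 37.2 and 9.33 CPM against 13.0, 2.23 and 11.1 CPM. These groups overlapped in both genes. Without GLASTneg library 1 Gjb1 was not called (log2 fold change -1.40, from -2.14), and without GLASTpos library 1 that of Cyp26b1 was -5.08, from -2.89. Lgi1, a secreted synaptic protein (chr19:38264536-38312214), was at 199, 385 and 284 CPM against 144, 110 and 111 CPM. Its exons overlap the antisense gene Gm42723, so its counts are uncertain. Ptgds, a prostaglandin D synthase (chr2:25466709-25470046), was at 349.9, 199.8 and 259.9 CPM against 112, 44.5 and 113 CPM. Gng11, a G protein gamma subunit (chr6:4003904-4008445), was at 63.6, 59.3 and 59.4 CPM against 21.1, 13.4 and 23.99 CPM. The groups did not overlap in these 3 genes.

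Genes of core astrocyte functions had similar sums in both groups and no calls. The 32 listed astrocyte function genes summed to 102913 ± 3548 CPM (SD, n = 3) in GLASTneg and to 102522 ± 7043 CPM (SD, n = 3) in GLASTpos libraries. Slc1a2 was at 7483, 8746 and 8112 CPM in GLASTneg and at 8874, 8160 and 8583 CPM in GLASTpos libraries. Apoe, the lipid carrier, was at 12138, 12043 and 11896 CPM against 13951, 12002 and 12541 CPM. The groups overlapped in both genes. Of the 32, none was called by edgeR or DESeq2, 1 was higher and 1 lower at an unadjusted p under 0.05, and 16 had the higher mean in each group. The groups did not overlap in 3 members higher and 3 lower in GLASTpos libraries, where 5.73% and 5.15% of all genes did so. Gfap, also a member, was at 25.4, 72.8 and 43.1 CPM against 21.9, 8.90 and 16.6 CPM.

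Gliogenic transcription factors gave the same picture. Sox9, which maintains astrocyte identity, was at 1549, 1561 and 1817 CPM against 1776, 1582 and 1929 CPM. Hes5, a target of Notch signalling, was at 1033, 336 and 635 CPM against 802, 1174 and 1935 CPM, a spread of several fold within each group, and was not called (log2 fold change 0.97 ± 0.27, edgeR, Benjamini-Hochberg adjusted p = 0.156). None of the 18 factors was called by edgeR or DESeq2, and 1 in each direction had an unadjusted p under 0.05.

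Several other astrocyte programmes also had 0 called genes by edgeR and DESeq2. In the glial extracellular matrix list of 17, Ptprz1, a receptor phosphatase of the matrix, was at 2304, 2494 and 2407 CPM against 2450, 2408 and 2632 CPM, and Hapln1, a link protein, was at 223, 161 and 189 CPM against 284, 338 and 318 CPM. At an unadjusted p under 0.05, 2 of the 17 were higher and 1 lower. In the cholesterol synthesis list of 19, Msmo1, a sterol oxidase, was at 1810, 1481 and 1893 CPM against 1927, 1817 and 2016 CPM, and 0 had an unadjusted p under 0.05. In the glycolysis list of 21, Aldoc, an aldolase of astrocytes, was at 5801, 5275 and 5182 CPM against 6187, 5328 and 5717 CPM, and 1 was lower at an unadjusted p under 0.05. In the list of 23 Notch, BMP, Wnt and Shh genes, Fzd2, a Wnt receptor, was at 421, 393 and 529 CPM against 626, 535 and 540 CPM, and 1 was higher at an unadjusted p under 0.05.

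Regional astrocyte genes beyond the patterning factors gave no calls. Agt, the angiotensin precursor made by brainstem and diencephalic astrocytes, was at 707, 758 and 977 CPM in GLASTneg and at 537, 332 and 584 CPM in GLASTpos libraries, without overlap. Mfge8, a phagocytic bridge protein of telencephalic astrocytes, was at 8500, 5245 and 5691 CPM against 9161, 7922 and 8251 CPM, with GLASTneg library 1 inside the GLASTpos range. Sept4, a septin of Bergmann glia, was at 145, 119 and 75.8 CPM against 62.5, 46.7 and 48.9 CPM, without overlap. None of the 6 diencephalic and brainstem, 8 telencephalic and 9 Bergmann glia genes was called by edgeR or DESeq2, and 2 lower, 1 higher and 3 lower, in that order, had an unadjusted p under 0.05. With RLE size factors 1 of the Bergmann glia genes was called. Also with 0 called by both tools were 19 immediate early genes, 12 cell cycle genes, 10 neuroblast genes, 13 secreted synapse-organizing factors, 4 fibroblast genes, 6 granule cell genes and 22 Hox genes. At an unadjusted p under 0.05, 1 synapse-organizing factor and 1 Hox gene were lower and 0 in the other 5 lists.

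Pan-reactive genes, which rise in astrocytes after injury, gave 1 call. Vim, the intermediate filament vimentin (chr2:13573927-13582826), was at 84.8, 107 and 268 CPM in GLASTneg and at 80.4, 32.3 and 67.4 CPM in GLASTpos libraries. The highest GLASTpos library lay just under the lowest GLASTneg library, and Vim fell by 1.33 with an SE of 0.32 (edgeR, Benjamini-Hochberg adjusted p = 0.0324). Without GLASTneg library 3, the highest, its log2 fold change was -0.67, and it was not called without that library or without GLASTpos library 2 or 3. Gfap, the astrocytic filament protein, was at 25.4, 72.8 and 43.1 CPM against 21.9, 8.90 and 16.6 CPM, without overlap, and was not called (log2 fold change -1.56 ± 0.44, edgeR, Benjamini-Hochberg adjusted p = 0.158). Serpina3n, a serpin of reactive astrocytes, was at 155, 130 and 192 CPM against 179, 113 and 160 CPM. Of 10 tested genes 9 had a lower mean in GLASTpos libraries, and the median log2 fold change was -0.98 (-1.33 at the bound). Vim is also in the list of 14 tested neural stem and progenitor genes and is its only call, and there Fabp7, a radial glia fatty acid carrier, was at 188, 208 and 239 CPM against 287, 210 and 236 CPM.

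Myeloid markers had a higher mean in GLASTpos libraries for 12 of 12 genes, and none was called by edgeR or DESeq2. They summed to 54.1, 102 and 51.3 CPM in GLASTneg and to 249, 276 and 70.1 CPM in GLASTpos libraries, so GLASTpos libraries 1 and 2 were high and library 3 lay within the GLASTneg range. Csf1r, the receptor of microglia for colony-stimulating factor, was at 18.03, 16.1 and 21.0 CPM against 60.9, 50.1 and 11.995 CPM. At an unadjusted p under 0.05 there were 2 higher, and the median log2 fold change was 1.68 (1.52 at the bound). Itgam, which encodes the CD11B antigen excluded by the sort, was at 0, 1.69 and 0 CPM against 5.69, 7.79 and 11.995 CPM and was not called.

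Other cell types gave no further calls. Endothelial and mural markers summed to 93.3, 137 and 213 CPM against 184, 111 and 108 CPM, and the median log2 fold change of 9 tested was -0.09, or 0.41 with genes at the floor set to their bound. The choroid plexus carrier Ttr was at 180, 160 and 113 CPM against 338, 111 and 77.5 CPM. Haemoglobin genes of red blood cells summed to 46.7, 27.1 and 35.0 CPM against 62.5, 195 and 9.23 CPM, with GLASTpos library 2 the highest of the 6. None of the genes in these 3 lists was called by edgeR or DESeq2, and at an unadjusted p under 0.05 there were 0, 0 and 1 (higher). In the olfactory ensheathing list, which shares its only call of 7 with the oligodendrocyte list, the neuropeptide gene Npy was at 110, 95.7 and 88.6 CPM against 47.9, 52.3 and 80.3 CPM and the Wnt antagonist Frzb at 45.6, 14.4 and 37.3 CPM against 23.6, 1.11 and 25.8 CPM.

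To describe what the pair shares, the mean of both groups was set against the mean of the other 3 acutely isolated groups. Of 14957 genes 596 were called (3.98%), of which 338 were higher in the pair (2.26%) and 258 lower (1.72%). Forebrain genes were among those with the largest differences. The paper, from the same data, already gives Dmrta2, Chrdl1 and Crym among the genes with highest enrichment in forebrain astrocytes. Of the forebrain patterning factors 12 of 16 tested were called higher and 0 lower, and of the telencephalic astrocyte genes 7 of 8 and 0. Dmrta2 was at 98.2 to 142 CPM in the pair and at 0 to 8.70 CPM in the other 9 libraries, a log2 difference of 6.77 ± 0.47 (edgeR, Benjamini-Hochberg adjusted p = 4.62e-22). Chrdl1, a secreted BMP antagonist (chrX:143285674-143394262), lay at 57.6 to 185 CPM against 0 to 15.5 CPM, a log2 difference of 6.45 ± 0.42. Fezf2, a factor of cortical projection neurons and their progenitors (chr14:12342094-12348189), lay at 12.7 to 46.1 CPM against 0 to 4.38 CPM.

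The other genes of this group lie outside patterning. Crym, a thyroid hormone binding protein (chr7:120186380-120202111), was at 56.2, 11.9 and 5.83 CPM in GLASTneg and at 57.7, 75.7 and 88.6 CPM in GLASTpos libraries, and at 0 to 4.83 CPM in the other 9. GLASTneg libraries 2 and 3 were low for this gene, which was not called between the groups of the pair (log2 fold change 1.58 ± 0.74). Prss56, a serine protease (chr1:87183313-87188405), had 231 counts in the pair and 3 in the other 9 libraries, a ratio of 94.6 after library size with a 95% exact interval from 31.96 to 462. Tfcp2l1, a transcription factor (chr1:118627945-118685168), had 113 counts against 3, a ratio of 46.3 with an interval from 15.4 to 228. Scel, which encodes sciellin (chr14:103513342-103612797), was at 4.61 to 13.8 CPM in the pair and at 0 in the other 9, which makes it at least 2.46-fold higher against a floor of 3 counts per library. All were called by edgeR in this contrast.

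Genes lower in the pair than in the mean of the other 3 groups included those of Bergmann glia, of which 9 of 9 tested were called. The 3 libraries labelled spinal cord GLASTneg carried most of this, with a list sum of 11058 CPM on average against 1721 and 1259 CPM in the other 2 groups and 980 and 917 CPM in the pair. The 9 genes include Wif1 and Mybpc1, which the paper, from the same data, gives as most enriched in hindbrain astrocytes. The libraries labelled hindbrain GLASTneg were under both means of the pair for Gdf10, a growth factor (11.96 against 48.8 and 70.6 CPM), and for Gria1, an AMPA receptor subunit (84.7 against 91.1 and 116 CPM). Gria4, an AMPA receptor subunit (chr9:4417896-4796234), was at 19.1, 12.7 and 19.8 CPM in GLASTneg and at 6.498, 1.11 and 7.38 CPM in GLASTpos libraries, and at 81.9 to 907 CPM in the other 9. Its log2 difference was -4.50 ± 0.25 (edgeR, Benjamini-Hochberg adjusted p = 6.93e-29), and within the pair it was not called (-1.68 ± 0.42, edgeR, Benjamini-Hochberg adjusted p = 0.0583). Its exons overlap those of Gm23811 on the same strand, so its counts are uncertain. Pax3, a factor of the dorsal neural tube (chr1:78101267-78197134), was at 0 to 10.2 CPM in the pair against 35.0 to 348 CPM, and Aldh1a1, which makes retinoic acid (chr19:20492715-20643465), at 3.69 to 18.6 CPM against 46.6 to 208 CPM. Car10 (chr11:93098028-93601749), Fam155a (chr8:9205902-9771161), Col1a2 (chr6:4504814-4541544), Cdh22 (chr2:165111507-165234853) and Pdgfd (chr9:6168584-6378850) were also lower in the pair. Their log2 differences were -3.49, -3.33, -2.97, -2.94 and -2.85 with SEs of 0.26, 0.37, 0.29, 0.33 and 0.48, and all were called. In all 5 the pair's highest library lay under the lowest of the other 9.

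Some signalling and matrix genes were also called higher in the pair. Hes5 had a log2 difference of 3.77 and Hapln1 of 3.89, and both were called. Cspg5, a brain proteoglycan, was at 1060, 1094 and 1381 CPM in GLASTneg and at 1789, 1243 and 1743 CPM in GLASTpos libraries, with a log2 difference of 2.75 from the other 3 groups. Of 23 Notch, BMP, Wnt and Shh genes 8 were called higher and 1 lower, and of 17 matrix genes 4 and 1. The median log2 difference over all genes tested was 0.083 in this contrast, beside 0.67 and 0.85 for these lists.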

How the data were processed

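RNA of acutely isolated astrocytes was measured by QuantSeq 3′ sequencing. According to the paper's methods and the submitters' processing notes, the authors mapped reads to GRCm38 (HISAT 0.1.5, SAMtools) and obtained gene counts with HTSeq 0.6.1p1 in union mode. The values deposited are these counts per gene, as whole numbers without normalization or pooling. Reads at the 3′ end make counts largely independent of transcript length, and genes with overlapping 3′ exons can lose or share counts. Whether the counting used strand is not given in the sources used here.

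Groups and replicate numbers were taken from the sample labels, and the group names of the paper's supplementary table were matched to libraries by proportional values. The members of the pair and all gene lists were chosen with earlier results of these data known. The 15 acutely isolated libraries (5 groups of 3) were fitted together without further covariates in edgeR 4.0.16 (R 4.3.3) with TMM scaling, on the 14957 genes with at least 10 counts in total, out of 25773 in the table, with a quasi-likelihood test and Benjamini-Hochberg adjustment. edgeR stands in place of DESeq2, which the study's methods name, and DESeq2 1.42.0 was run as an alternative. The calling was tested on simulated data with changes of a larger and a smaller size. Directions and estimates were recovered, but most of the smaller and a part of the larger changes were not called. Recovery of the larger changes fell just short of a first criterion, which was then replaced by criteria on direction, false calls and estimates. A list with 0 called genes is therefore no sign that its genes did not differ. Reference coordinates are those of GRCm38, and promoter windows came from RefSeq GRCm38.p6. Totals of 824608 to 1269316 counts per library of the pair put the floor of 3 counts at 2.36 to 3.64 CPM before TMM scaling.

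The genes named were Slc1a3, Atp1b2, up to 12 called genes per direction that had the largest fold changes, did not overlap between groups and averaged 5 CPM or more, every called list member, up to 4 highly expressed members of a list, and 8 genes per direction for both groups against the other 3. Some genes that meet this rule are not reported here. Alternatives were RLE normalization, other filters on low counts, DESeq2, other sets of libraries in the fit, a replicate block and leaving out each library. Cultured libraries were used only in 1 of these.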

Additional observations from a re-analysis of the deposited data

How the results depend on the processing

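The count of 27 called genes between GLASTneg and GLASTpos libraries moved with the fit. It was 52 with only the 6 libraries of the pair, of which 24 were among the 27, and 1 with the cultured libraries in the fit. It was 2 with filterByExpr, 50 with no filter on low counts and 8 with DESeq2, and with RLE normalization it was 32. Leaving out a library in turn gave 2 to 33 genes. Of the genes of the 30 lists, 6 were called, and this count was 1 with the cultured libraries, 1 with filterByExpr, 12 with no filter and 2 with DESeq2, and 1 to 8 when a library was left out (1 without GLASTpos library 2 and 1 without GLASTpos library 3). The cause of these changes was not tested. Libraries with the same replicate number were not shown to be paired, since their deviations from the group means correlated by only 0.027, 0.044 and 0.0055. GLASTneg libraries 1 and 2 correlated best with the GLASTpos library of their own number, and GLASTneg library 3 with GLASTpos library 1. With the replicate number as a block, 52 genes and 13 list members were called. The log2 fold changes of all 27 genes kept their direction under every alternative run, and Slc1a3 and Atp1b2 were called under none. The pair ranked 1 of 10 by the fewest called genes in each of the 11 alternatives that gave a rank. No rank was taken from the fit of the pair alone or the fit with cultured libraries. The rank is a description, since the pair was chosen with earlier results known. Both groups against the other 3 gave 501 to 636 called genes over the alternatives run, beside 596. At these depths a gene at the floor of 2.36 to 3.64 CPM before TMM scaling rests on 3 counts. Differences between values that both lie near that level may therefore have been missed.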
